A study of Homo sapiens with 17 samples.

Results

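KYSE140 and SKMES1 are established human squamous cell carcinoma lines, KYSE140 from the esophagus and SKMES1 from the lung. The RNA-seq libraries that carried a negative-control guide RNA were compared between the lines. They were taken by their labels and are 4 of the 17 libraries of the series, 2 for each line, with values for 57820 genes. The KYSE140 cells stably expressed a cleavage-dead Cas9 (dCas9) built for CRISPR interference, that is, for repression, under blasticidin selection, and then received sg-NC#1 or sg-NC#2, guides with no matching site in the genome, under puromycin selection. The SKMES1 cells expressed dCas9-VP64, dCas9 joined to an activator domain (CRISPR activation), under blasticidin selection, and then received sg-NC#1 or sg-NC#2 in a vector that recruits further activator domains, under puromycin selection. Both lines were grown in RPMI-1640 medium with fetal bovine serum. Each group is a single line, so the tissue of origin, the individual line and the form of dCas9 cannot be told apart in any difference below.

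SOX2 is a transcription factor of the SOX family that marks the foregut and the basal cells of the airway and esophagus, and with the p53-family factor TP63 it is a lineage factor of squamous carcinomas, often within an amplified stretch of the long arm of chromosome 3. Squamous epithelium is built on basal keratins, desmosomes and E-cadherin junctions. Carcinoma cells that lose this program can take on mesenchymal genes, a shift held by factors such as ZEB1, which represses epithelial genes through E-box motifs.

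Levels are in TPM, the abundance of transcripts scaled for gene length and library total, given for sg-NC#1 and then sg-NC#2 of a line. Fold and log2 differences come from edgeR on the counts and run from KYSE140 to SKMES1, with a standard error (SE) and n = 2 libraries in each line. A gene was called at an adjusted p under 0.05 and a fold over 1.5. The libraries held between 10144325 and 12710128 counts, so that 3 counts correspond to 0.236 to 0.296 CPM, counts scaled to a fixed total. Of 15100 genes tested, 8391 (55.6%) were called, 4592 (30.4%) higher in SKMES1 and 3799 (25.2%) lower. The median difference was 0.05 on the log2 scale. The shares of 30.4% and 25.2% are the background for each list count below. Differences past 32-fold were held by 1077 higher and 346 lower genes, counting fitted values.

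The SKMES1 libraries stood further apart from each other than the KYSE140 libraries did. The biological coefficient of variation, the spread between libraries beyond counting error, was 0.189 in SKMES1 and 0.0428 in KYSE140. Since keratins are among the genes that set the SKMES1 libraries apart, results that rest on either library are also given without it. The replicates carry different guides, and the study describes its RNA-seq of CRISPR-treated KYSE140 and SKMES1 cells as independent biological experiments. With a single SKMES1 library left, the fit assumes that it varies as the KYSE140 pair does. The values without a SKMES1 library are therefore to be read as log2 differences. Calls and counts of calls without a SKMES1 library rest on the same assumption and understate the spread. They describe the library that is left and are no test of the line.

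Markers of squamous cells were checked first, because both lines are labelled as squamous carcinoma. The 14 markers summed to 10532 and 10396 TPM in KYSE140 and to 1217 and 2292 TPM in SKMES1. Of the 13 tested, 11 were lower in SKMES1 and 0 were higher, with a median log2 difference of -5.71. In SKMES1 the sum was made up mainly by S100A2, a calcium-binding protein of basal epithelium, at 1101 and 1931 TPM against 4135 and 4010 TPM in KYSE140. Of the markers in SKMES1, KRT5, KRT6A, DSG3 and CLCA2 were each under 3 TPM in both libraries, and TP63 was under 4 TPM. Other markers were kept. SERPINB5 stood at 32.7 and 81.4 TPM in SKMES1 against 41.0 and 40.7 TPM in KYSE140 and was not called. KRT14, also not called, stood at 0.31 and 118 TPM in SKMES1, and PKP1 was lower by a log2 difference of only -0.82. Averaged over the libraries of a line, 13 of the 14 markers reached 1 TPM in KYSE140 and 7 in SKMES1. Of the 5 markers at 10 CPM or more in SKMES1, 3 were over 2-fold higher in sg-NC#2 than in sg-NC#1. Without SKMES1 sg-NC#1, 10 markers were lower and 1 higher, and without sg-NC#2, 12 were lower and 0 higher. In bulk RNA, fewer cells that express a gene and less RNA in each cell cannot be told apart.

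Transcription factors of squamous epithelium were lower in SKMES1 with few exceptions. SOX2 (ENSG00000181449, chr3:181429713-181432224, plus strand, GRCh37) stood at 379 and 365 TPM in KYSE140 and at 1.68 and 1.53 TPM in SKMES1. This was a 252-fold lower level, or a log2 difference of -7.98 ± 0.13 (SE, n = 2 per line; edgeR adjusted p = 8.1e-06). The SKMES1 level rests on 27 and 29 counts, so this SE understates the uncertainty. TP63 (chr3:189349178-189615065, plus strand) stood at 153 and 157 TPM in KYSE140 and at 2.97 and 3.79 TPM in SKMES1, 51.8-fold lower (log2 difference -5.69 ± 0.13, edgeR adjusted p = 1.1e-05). The lines did not overlap for either gene, and the gap was many times the spread within a line.

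Further factors of the squamous and epithelial program followed the same direction. GRHL2, a grainyhead factor that maintains epithelial junction genes, was at 41.8 and 30.8 TPM in KYSE140 and had 0 counts in both SKMES1 libraries, at least 415-fold lower against a floor of 3 counts per library. GRHL3, needed for barrier formation, was 93.1-fold lower, and OVOL1, a zinc finger factor that restrains mesenchymal genes, was 68.3-fold lower. Smaller differences were held by TFAP2A at 7.38-fold and TFAP2C at 4.8-fold, both AP-2 factors of surface ectoderm.

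In all, 16 of the 18 squamous factors tested were lower in SKMES1 and 1 was higher, against 25.2% and 30.4% of all genes, and their median log2 difference was -4.02 (-3.78 with genes at 0 counts set to their bound). The exception was ELF3, an epithelial ETS factor, at 3.98 and 2.47 TPM in KYSE140 and 9.06 and 13.5 TPM in SKMES1 (3.80-fold higher). KLF4, a factor of differentiating squamous cells, was not called. It stood at 25.9 TPM in SKMES1 sg-NC#1 and 170 TPM in sg-NC#2, around the KYSE140 levels of 27.9 and 31.7 TPM, and its log2 difference was 2.35 and called without SKMES1 sg-NC#1 and -0.31 and not called without sg-NC#2. Without SKMES1 sg-NC#1, 15 of the 18 factors were lower and 2 higher, and without sg-NC#2, 15 were lower and 1 higher.

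**Figure D1:**
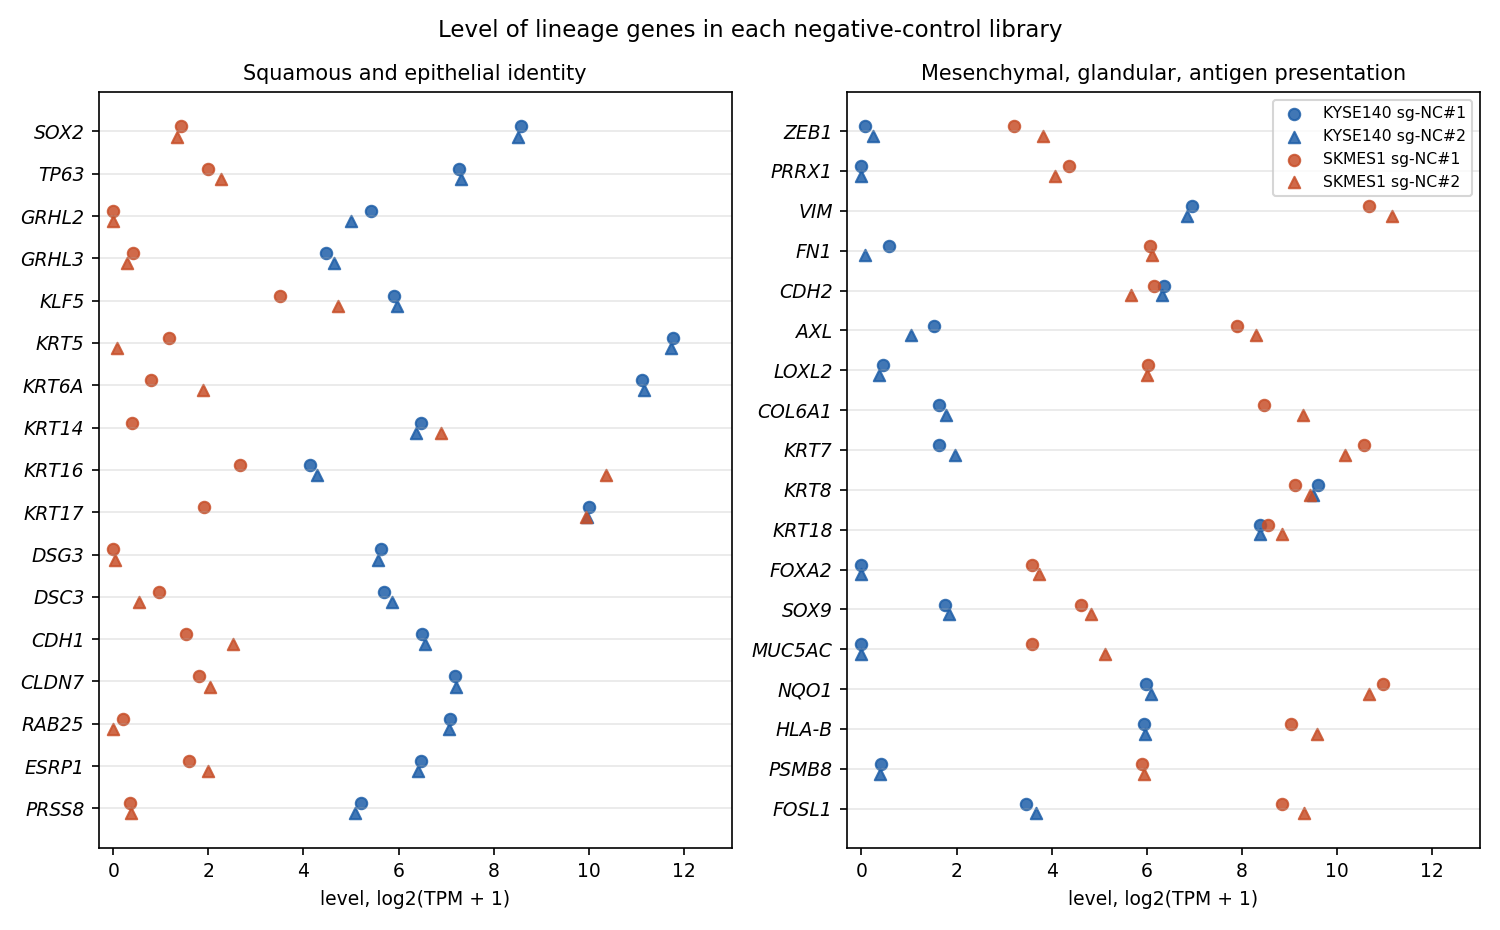
Level of lineage genes as log2(TPM + 1) on the horizontal axis, 1 row per gene, with KYSE140 in blue and SKMES1 in orange, circles for sg-NC#1 and triangles for sg-NC#2. SOX2, TP63 and KRT5 lie far to the right in KYSE140, KRT7, VIM and NQO1 in SKMES1, and for KRT14, KRT16 and KRT17 the SKMES1 circle and triangle lie far apart.

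SOX2 was also high in KYSE140 cells without CRISPR interference. It was 397 and 428 TPM in KYSE140 cells with Cas9 and control guides (AAVS1 and Chr2.2) and 236 and 223 TPM in KYSE140 cells given DMSO. Against those libraries in place of the negative-control pair, the log2 difference of SOX2 to SKMES1 was -8.08 and -7.38. TP63 was 145 to 182 TPM over the same 4 KYSE140 libraries. In SKMES1 cells whose guides targeted e1, an enhancer of SOX2, SOX2 stood at 224 and 316 TPM, while TP63 stood at 1.87 and 2.24 TPM, KRT5 at 0.91 and 0.87 TPM and CDH1 at 1.26 and 0.60 TPM.

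Several basal keratins were high in KYSE140 and near 0 in SKMES1. KRT5, the type II keratin of basal cells (chr12:52908359-52914314, minus strand), stood at 3476 and 3397 TPM in KYSE140 and at 1.26 and 0.05 TPM in SKMES1, 22881-fold lower by the fit (log2 difference -14.48 ± 0.33, edgeR adjusted p = 1.1e-05). This fold is wider than the TPM values give and is uncertain near 0. Over all alternatives the log2 difference of KRT5 ran from -15.82 to -11.12. KRT6A, a keratin of activated and hyperproliferative epithelium, stood at 2217 and 2282 TPM against 0.74 and 2.70 TPM, 1375-fold lower. Both are near 0 in both SKMES1 libraries, and their log2 differences stayed below -9 without either library, at -15.82 and -13.68 for KRT5 and -9.83 and -11.63 for KRT6A. KRT6C had 0 counts in SKMES1 and was at least 384-fold lower. KRT15, a keratin of resting basal cells, was lower at 16.7 and 53.8 TPM against 208 and 171 TPM, with a log2 difference of -2.98 that was -2.38 without SKMES1 sg-NC#1 and -4.05 without sg-NC#2. KRT15 also varied among KYSE140 controls, from 14.9 and 16.2 TPM in the Cas9 control libraries to 545 and 574 TPM in the DMSO libraries, and against the Cas9 controls it was not called (log2 difference 0.77). The basal keratins share sequence with each other and with pseudogenes, and their counts were split in part between them, so values of single members are uncertain.

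The remaining basal keratins turned on a single SKMES1 library. KRT17 stood at 2.73 TPM in SKMES1 sg-NC#1 and 977 TPM in sg-NC#2, the latter close to the 1027 and 999 TPM of KYSE140. KRT14 stood at 0.31 and 118 TPM in SKMES1 against 87.1 and 81.9 TPM, and KRT16 at 5.34 and 1314 TPM against 16.7 and 18.6 TPM. None of the 3 was called with both libraries. Without SKMES1 sg-NC#2 all 3 were lower in SKMES1, with log2 differences of -8.63 for KRT17, -8.20 for KRT14 and -1.70 for KRT16. Without sg-NC#1 the values were -0.18 for KRT17, 0.33 for KRT14 and 6.15 for KRT16. Of the 9 basal and stress keratins, 6 were lower and 0 higher with both libraries, 6 lower and 1 higher without sg-NC#1, and 9 lower without sg-NC#2.

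Between the SKMES1 libraries themselves, of 10540 genes with at least 10 CPM in either, 187 (1.77%) were over 2-fold higher in sg-NC#2 and 70 (0.664%) over 2-fold higher in sg-NC#1. In KYSE140 the same comparison gave 2 and 4 of 9924 genes. With 1 library on each side there is no test of these differences. By list, 4 of 4 basal keratins at that level were over 2-fold higher in sg-NC#2, as were 5 of 12 hemidesmosome genes and 5 of 30 genes of antigen presentation and interferon response.

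Beside the keratins, COL17A1, the hemidesmosomal collagen, stood at 1.19 and 73.1 TPM, and AQP3, a water and glycerol channel of basal epithelium, at 2.34 and 135 TPM. In the opposite direction, TPSB2, a tryptase of mast cells, stood at 663 and 6.01 TPM, the muscle enolase ENO3 at 858 and 23.6 TPM, and the chemokine CXCL1 at 40.5 and 3.77 TPM. The SKMES1 libraries with e1-targeting guides gave 2.85 and 133 TPM for KRT17 and 1.28 and 2049 TPM for KRT16, again low in the first and high in the second, but 0 and 0.30 TPM for KRT14 and 0.76 and 0.59 TPM for COL17A1. The cause of these differences was not tested.

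**Figure D2:**
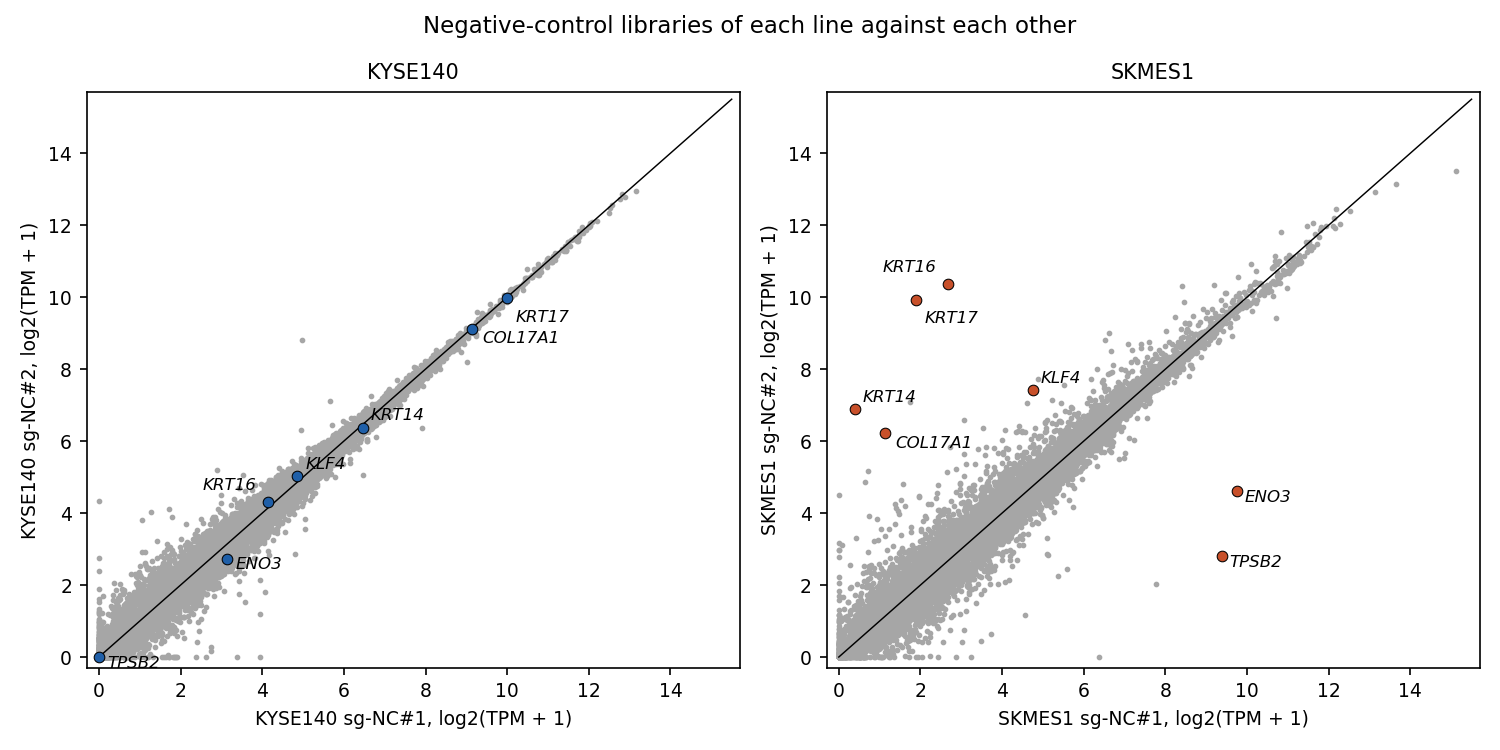
Each tested gene as a grey point, with log2(TPM + 1) in sg-NC#1 on the horizontal axis and in sg-NC#2 on the vertical axis, for KYSE140 on the left and SKMES1 on the right, with the line of equality in black. KYSE140 genes lie close to the line, while in SKMES1 the labelled KRT17, KRT16, KRT14 and COL17A1 lie above it and TPSB2 and ENO3 below it.

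Desmosomes anchor keratins between neighbouring cells, and 2 of their squamous members, DSG3 and DSC3, were nearly absent from SKMES1. Other members differed less, with log2 differences of -0.82 for PKP1, -1.23 for DSC2 and -0.52, not called, for PKP3. DSG3, the desmoglein of basal squamous layers, stood at 48.5 and 46.5 TPM in KYSE140 and at 0 and 0.02 TPM in SKMES1, a count ratio of 4161 with 1 SKMES1 count in all (95% counting interval 746 to 164375, which like all intervals here covers counting error only). DSC3, its desmocollin partner, stood at 50.8 and 56.9 TPM against 0.94 and 0.46 TPM, 106-fold lower. Both genes share reads with paralogs in part, and the lines did not overlap for either.

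The plakin DSP, which ties keratin to the plaque, was 7.20-fold lower, and the plaque protein JUP 6.23-fold lower. DSG2, the desmoglein of simple epithelia, was 1.51-fold higher at 150 and 201 TPM against 106 and 108 TPM, a call that was lost without SKMES1 sg-NC#2 (log2 difference 0.40 in place of 0.59). Of 10 desmosome genes tested, 8 were lower in SKMES1 and 1 higher, with a median log2 difference of -1.64. The 8 became 6 without sg-NC#1, when PKP1 and PKP2 lost their calls with log2 differences of -0.45 and -0.57, and stayed 8 without sg-NC#2. DSP moved to -2.36 and -3.57 on the log2 scale without either library and stayed called.

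Genes of the suprabasal and cornified layers summed to 166.8 and 174.8 TPM in KYSE140 and to 188.1 and 328.3 TPM in SKMES1. Of the SKMES1 sums, ECM1 alone made up 85.9 and 199 TPM, and without it they would lie below those of KYSE140. Of 29 genes, 14 reached a mean of 1 TPM in KYSE140 and 10 in SKMES1. The 10 that could be tested held 5 lower and 2 higher in SKMES1. KRT13, the keratin of suprabasal esophageal layers, stood at 47.9 and 37.03 TPM in KYSE140 and at 0 and 0.53 TPM in SKMES1, a count ratio of 470 with 2 SKMES1 counts in all, both in sg-NC#2 (95% counting interval 130 to 3889). ECM1, an extracellular matrix protein also made by squamous epithelium, ran the other way, at 1.73 and 1.13 TPM against 85.9 and 199 TPM, with a log2 difference of 6.70 (7.18 and 6.01 without SKMES1 sg-NC#1 and sg-NC#2). IVL, the precursor of the cornified envelope, was at most 0.14 TPM in KYSE140 and stood at 0.44 and 2.56 TPM in SKMES1, and was too low to test.

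Epithelial junction and polarity genes were mostly lower in SKMES1. CDH1, encoding E-cadherin (chr16:68771195-68869440, plus strand), stood at 89.6 and 93.6 TPM in KYSE140 and at 1.89 and 4.74 TPM in SKMES1, 83.5-fold lower (log2 difference -6.38 ± 0.51, edgeR adjusted p = 2.0e-04). CDH3, encoding P-cadherin of basal cells, was 74.2-fold lower. For CDH1, which shares some reads with other loci, the log2 difference was -5.69 without SKMES1 sg-NC#1 and -8.05 without sg-NC#2. The counts gave CDH1 a wider gap than the TPM values do, and over all alternatives its log2 difference ran from -8.05 to -4.51. RAB25, a small GTPase of apical trafficking in epithelia, stood at 134 and 133 TPM against 0.16 and 0 TPM, a count ratio of 1728 with a 95% counting interval of 310 to 68297. ESRP1 and ESRP2, the splicing regulators that keep the epithelial isoforms of many genes, were 43.0-fold and 23.4-fold lower.

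CLDN7, a claudin of tight junctions, stood at 144 and 148 TPM in KYSE140 and 2.50 and 3.09 TPM in SKMES1, 85-fold lower. CRB3, which sets the apical domain, stood at 40.5 TPM in both KYSE140 libraries and 1.41 and 2.14 TPM in SKMES1, 22.4-fold lower. AP1M2, the clathrin adaptor subunit of polarized epithelia, stood at 159 and 148 TPM against 23.6 and 18.0 TPM and was 22.9-fold lower on counts, a wider gap than the TPM values give. EPCAM was 6.17-fold lower and kept 34.5 and 41.7 TPM in SKMES1. In the other direction CLDN4 was 2.12-fold higher, CLDN1 3.92-fold higher and the scaffold TJP1 2.09-fold higher. Against the KYSE140 Cas9 controls, CLDN4 (log2 difference 0.31) and TJP1 (0.55) were not called, and 2 junction genes were higher. Of 33 genes, 22 were lower and 5 higher, with a median log2 difference of -1.97. Without SKMES1 sg-NC#1, 24 were lower and 5 higher, and without sg-NC#2, 25 and 5.

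The promoters shown are those of the 3 lower genes with the most matches to the E-box CAGGTG, among those with a sequence. ZEB and SNAI repressors are known to bind this motif in epithelial promoters. On the other strand the motif reads CACCTG. Each sequence is from RefSeq, GRCh38.p14, from 250 bases before to 50 bases after the transcript start, in the sense of the gene, with matches on either strand in capitals. CLDN7 (chr17:7262429-7262728, minus strand) and CRB3 (chr19:6464021-6464320, plus strand) hold 5 matches each and AP1M2 (chr19:10587263-10587562, minus strand) holds 3.
CLDN7: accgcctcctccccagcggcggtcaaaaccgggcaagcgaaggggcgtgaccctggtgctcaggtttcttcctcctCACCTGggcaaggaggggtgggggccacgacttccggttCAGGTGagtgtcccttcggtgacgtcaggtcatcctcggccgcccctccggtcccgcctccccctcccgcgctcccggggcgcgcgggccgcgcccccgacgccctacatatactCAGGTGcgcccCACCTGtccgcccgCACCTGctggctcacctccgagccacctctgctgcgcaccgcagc
CRB3: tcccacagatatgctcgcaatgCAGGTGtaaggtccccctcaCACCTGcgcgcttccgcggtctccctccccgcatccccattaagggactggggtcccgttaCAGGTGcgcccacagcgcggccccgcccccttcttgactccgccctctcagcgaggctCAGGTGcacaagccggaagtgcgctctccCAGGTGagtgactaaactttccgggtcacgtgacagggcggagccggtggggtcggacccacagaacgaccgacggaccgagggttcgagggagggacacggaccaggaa
AP1M2: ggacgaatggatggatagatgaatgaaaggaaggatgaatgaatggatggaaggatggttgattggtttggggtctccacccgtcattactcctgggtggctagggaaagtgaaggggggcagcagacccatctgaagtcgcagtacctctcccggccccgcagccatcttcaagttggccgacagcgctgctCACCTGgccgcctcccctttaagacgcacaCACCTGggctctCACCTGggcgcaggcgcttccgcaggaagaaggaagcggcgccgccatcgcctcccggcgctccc

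Of 35116 RefSeq promoters of this length, 20.6% held at least 1 match on either strand. Sequences were found for 18 of the 33 junction and polarity genes, and 14 of their 28 promoters (50%) held a match. The share was 8 of 16 for members lower in SKMES1 and 6 of 12 for the other members. It thus did not separate the lower members from the rest. TMEM30B, not called, held 4 matches and MYO5B, higher in SKMES1, held 3. Over all genes the share was 19.8% for promoters of genes lower in SKMES1, 18.9% for genes higher and 18.0% for genes not called. The match is a feature of the sequence in this window and says nothing about binding in these cells.

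Hemidesmosomes fix basal cells to the basement membrane, and their genes did not share a direction. With both libraries 50% were higher and 25% lower, against 30.4% and 25.2% of all genes. ITGA3, the laminin-binding integrin alpha chain, was 7.21-fold higher in SKMES1 at 652 and 649 TPM against 85.4 and 83.7 TPM. COL17A1 was lower, with a log2 difference of -4.26 that was -3.28 without SKMES1 sg-NC#1 and -9.60 without sg-NC#2, and its call (edgeR adjusted p = 0.049) held under 14 of 19 alternatives. It was lost with DESeq2, with limma on log2(TPM + 0.1), with a mean of at least 50 counts and without either KYSE140 library. ITGB4, the integrin chain specific to hemidesmosomes, stood at 406 and 391 TPM in KYSE140 and at 90.8 and 449 TPM in SKMES1 and was not called. Without sg-NC#2 ITGB4 was lower (-2.23), and without sg-NC#1 it was at 0.20, not called. Of 12 genes, 6 were higher and 3 lower in SKMES1, 7 and 2 without sg-NC#1, and 5 and 5 without sg-NC#2.

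Mesenchymal regulators and structural genes were higher in SKMES1 in most cases. ZEB1 (chr10:31607424-31818742, plus strand) stood at 0.05 and 0.18 TPM in KYSE140 and at 8.28 and 13 TPM in SKMES1. Its count ratio was 246 with a 95% counting interval of 83.9 to 1196 (edgeR adjusted p = 3.0e-05). PRRX1, a homeobox factor of mesenchyme, had 0 counts in both KYSE140 libraries and 19.71 and 15.69 TPM in SKMES1, at least 110-fold higher. TWIST1 was 2.73-fold and TWIST2 2.34-fold higher. SNAI2, which basal epithelium also expresses, was not called at 39.0 and 33.2 TPM against 30.04 and 41.63 TPM, and ZEB2 had 0 counts in SKMES1. TCF4 was 7.36-fold lower. Of 9 regulators tested, 6 were higher and 1 was lower.

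VIM, the intermediate filament of mesenchymal cells, stood at 122 and 114 TPM in KYSE140 and 1639 and 2268 TPM in SKMES1, 15.3-fold higher (log2 difference 3.93 ± 0.18, edgeR adjusted p = 4.1e-05). FN1, encoding fibronectin, stood at 0.50 and 0.05 TPM against 65.9 and 67.6 TPM, 664-fold higher. AXL, a receptor tyrosine kinase of mesenchymal carcinoma cells, was 185-fold higher, CDH11 73.4-fold and the metalloproteinase MMP2 21.6-fold.

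CDH2, encoding N-cadherin, was already 80.9 and 79.3 TPM in KYSE140 and 70.5 and 49.5 TPM in SKMES1, and was not called. Its log2 difference was -0.84 without SKMES1 sg-NC#1. Lower genes included TGFBI, an extracellular matrix protein, at 962 and 1056 TPM against 331.7 and 558.3 TPM, and TNC, encoding tenascin C, 4.93-fold lower. Of 36 structural genes tested, 22 were higher and 6 lower, with a median log2 difference of 2.14. VIM varied among KYSE140 controls too, from 117 and 118 TPM in the DMSO libraries to 237 and 267 TPM in the Cas9 control libraries, all under the SKMES1 levels.

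Collagens went both ways, also within a type. The collagen VI chains COL6A1 and COL6A2 were 192-fold and 262-fold higher in SKMES1, from 1.19 to 2.45 TPM in KYSE140 to 330 to 618 TPM, while the third chain COL6A3 was not called at 0.51 and 1.13 TPM against 0.94 and 1.52 TPM. Of the collagen V chains, COL5A1 was 4.49-fold higher and COL5A2 3.99-fold lower. The basement membrane chains COL4A1 and COL4A2 were 13.6-fold and 4.28-fold lower, and COL15A1, of the basement membrane zone, stood at 92.2 and 99.7 TPM against 0.03 and 0.23 TPM, with a log2 difference of -9.51 (-8.78 and -11.68 without SKMES1 sg-NC#1 and sg-NC#2). COL18A1, of the same zone, was 1.80-fold higher, a call that was lost without SKMES1 sg-NC#1 (log2 difference 0.42). Of 17 collagens tested, 8 were higher (47.1%) and 7 lower (41.2%), against 30.4% and 25.2% of all genes. The fibroblast collagens COL1A2 and COL3A1 and the proteoglycan DCN had 0 counts in all 4 libraries, and the 10 fibroblast markers summed to between 24.6 and 27.3 TPM in every library of both lines.

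Keratins of simple epithelia showed a different pattern from the basal keratins. KRT7, the keratin of glandular and airway lining cells (chr12:52626304-52645970, plus strand), stood at 2.10 and 2.90 TPM in KYSE140 and at 1524 and 1141 TPM in SKMES1, 1208-fold higher (log2 difference 10.24 ± 0.26, edgeR adjusted p = 1.2e-05). KRT8 and KRT18, the paired keratins of simple epithelia, were high in both lines and not called, KRT18 at 332.9 and 331.7 TPM against 373 and 460 TPM. KRT80 was 5.41-fold higher. Of 6 keratins of this list tested, 3 were higher and 0 lower in SKMES1. The 3 were KRT7, KRT80 and KRT81, and the last 2 are not typical keratins of simple epithelia. KRT81 stood at 22.8 and 1.25 TPM in SKMES1 against 0 and 0.07 TPM, so its level rests mainly on sg-NC#1. For KRT8 and KRT19 the log2 differences without sg-NC#2 were -0.60 and -1.18.

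Regional transcription factors of the foregut split between the lines. FOXA2, a pioneer factor of endoderm, had 0 counts in KYSE140 and stood at 10.99 and 12.28 TPM in SKMES1, at least 64.1-fold higher, while its relative FOXA1 overlapped between the lines at 8.31 and 10.5 TPM against 9.75 and 10.6 TPM and was not called. GATA6 was 9.48-fold higher, SOX9, a factor of the distal airway and of cartilage, 9.41-fold, and GATA3 14.2-fold. TBX2, of lung mesenchyme, was 13.1-fold higher. Each of these 4 was under 3 TPM in KYSE140.

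Lower in SKMES1 were several factors of the pharynx and anterior foregut, and also TBX3 and FOXF2, with log2 differences of -2.36 and -1.14. PAX9, of pharyngeal pouches and esophagus, stood at 20.4 and 24.0 TPM against 3.59 and 2.56 TPM (8.46-fold lower), and FOXE1, known from thyroid and esophagus, at 39.6 and 40.0 TPM against 2.50 and 2.91 TPM (16.0-fold lower). PITX1 was 3.57-fold lower and kept 49.9 and 52.8 TPM. IRX1 had 0 counts in SKMES1 and was at least 135-fold lower, and its neighbour in the IRXA cluster, IRX4, was 13.8-fold lower, while IRX3 and IRX5 of the IRXB cluster were 3.54-fold and 3.61-fold higher. NKX2-1, the lineage factor of lung and thyroid, was at most 1.26 TPM in any of the 4 libraries and not called. Of 24 factors tested, 12 were higher (50%) and 9 lower (37.5%), against 30.4% and 25.2% of all genes.

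Products of differentiated lung epithelium summed to 68.95 and 70.25 TPM in KYSE140, most of it LAMP3, and to 24.39 and 39.8 TPM in SKMES1, most of it from LAMP3 and MUC5AC. SFTPA1, SFTPA2, SFTPC, SCGB3A1 and AQP5 had 0 counts in all 4 libraries, and SFTPB and SCGB1A1 had 0 counts in SKMES1. Of 17 genes, 3 could be tested. MUC5AC, the gel-forming mucin of goblet cells, had 0 counts in KYSE140 and stood at 11.1 and 33.6 TPM in SKMES1, at least 184-fold higher. LAMP3, a marker of alveolar type II cells that also lies in distal 3q, was 15.3-fold lower, at 5.80 and 3.42 TPM against 56.2 and 55.0 TPM.

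Positional and family members of the SOX and HOX genes also separated the lines. SOX21, a SOX2-related repressor, stood at 27.8 and 32.1 TPM in KYSE140 and 0.87 and 1.58 TPM in SKMES1, 26-fold lower. SOX15, the SOX factor of keratinocytes, had 0 counts in SKMES1 and was at least 25.7-fold lower, and SOX4 was 5.10-fold lower. SOX7, an endodermal and endothelial factor, was higher at 4.50 and 6.91 TPM against 0.04 and 0.05 TPM. Of 14 SOX genes tested, 8 were lower and 3 higher, and SOX9 at 23.5 and 27.3 TPM was the highest SOX gene in SKMES1 by TPM, with SOX12 at 23.4 and 21.5 TPM beside it.

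Among HOX genes, which record position along the body axis, wide gaps stood in the HOXA cluster. HOXA9 stood at 78.8 and 65.3 TPM in KYSE140 and 0.46 and 0 TPM in SKMES1, and HOXA10 was 38.9-fold lower. HOXA4 had 0 counts in SKMES1 and was at least 57.3-fold lower. HOXB7, in contrast, stood at 45.0 and 42.0 TPM against 46.6 and 49.7 TPM and was not called, and HOXB9 was 3.78-fold higher. Of 32 HOX genes tested, 19 were lower and 6 higher in SKMES1. The 6 were HOXA13 and 5 HOXB genes.

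RNA of Notch ligands and targets was mostly lower in SKMES1, while the receptors went both ways. Notch signalling drives differentiation in squamous epithelium, and its activity was not measured here. The ligands JAG2, JAG1 and DLL1 were 5.80-fold, 3.03-fold and 7.70-fold lower. The receptor NOTCH3 stood at 62.5 and 62.4 TPM against 12.2 and 4.22 TPM, with a log2 difference of -3.42 (-4.47 and -2.79 without SKMES1 sg-NC#1 and sg-NC#2). NOTCH1 was lower by a log2 difference of -0.67, and NOTCH2 was the exception, 3.72-fold higher. The targets HES1 and NRARP were 2.93-fold and 6.46-fold lower. Of 12 genes tested, 10 were lower and 1 was higher, with a median log2 difference of -1.58. JAG2 moved to -3.14 on the log2 scale without sg-NC#1 and stayed called.

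Receptors and growth factors had no common direction, with 7 higher, 6 lower and 7 not called. The shares of 35% higher and 30% lower are near those of all genes, 30.4% and 25.2%. FGFR2, whose epithelial isoform receives mesenchymal FGF signals, stood at 161 and 155 TPM in KYSE140 and 2.03 and 1.69 TPM in SKMES1, 130-fold lower (log2 difference -7.02 ± 0.11, edgeR adjusted p = 8.1e-06). FGFR1, its relative of mesenchymal cells, was 2.84-fold higher. The ligand EREG stood at 0 and 0.03 TPM in KYSE140 and at 58.2 and 96.7 TPM in SKMES1, and the ephrin receptor EPHA2 was 8.78-fold higher. ERBB3 was 7.19-fold lower and IGF1R 3.48-fold lower.

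The NRF2 pathway, the response to oxidative and electrophilic stress set by the factor NFE2L2 and its repressor KEAP1, was higher in SKMES1. NQO1, a quinone reductase, stood at 62.0 and 66.8 TPM in KYSE140 and at 1989 and 1629 TPM in SKMES1, 27.3-fold higher (log2 difference 4.77 ± 0.16, edgeR adjusted p = 1.8e-05). HMOX1, a heme oxygenase, was 14.7-fold higher, the cystine transporter SLC7A11 8.09-fold, and GCLM, of glutathione synthesis, 7.03-fold. NFE2L2 itself was 1.69-fold higher, and KEAP1 was not called at 89.5 and 91.5 TPM against 86.6 and 75.3 TPM.

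Of 27 NRF2 pathway genes, 18 were higher and 2 lower, with a median log2 difference of 1.62. The lower genes were GPX2, a glutathione peroxidase of epithelia, at 196 and 185 TPM against 0 and 1.24 TPM, and TXNRD1, a thioredoxin reductase, at 128 and 137 TPM against 80.0 and 81.0 TPM. GPX2 was lower by 8.19 on the log2 scale with both libraries and its log2 difference was -7.33 without SKMES1 sg-NC#1 and -13.14 without sg-NC#2. AKR1C1 was 20.6-fold higher while AKR1C2 and AKR1C3 were not called. These paralogs share reads, so the split between them is uncertain.

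Antigen presentation and interferon response held the highest share of higher genes among the lists of 10 or more tested genes. Of 31 tested, 28 were higher in SKMES1 and 1 was lower, with a median log2 difference of 4.81. PSMB8, an immunoproteasome subunit, stood at 0.33 and 0.32 TPM in KYSE140 and at 58.3 and 60.7 TPM in SKMES1, 134-fold higher. HLA-B and HLA-C, class I heavy chains whose reads are partly shared, were 9.65-fold and 17.1-fold higher, and the peptide transporter TAP1 3.05-fold. Thus the class I genes were present in both lines, while the immunoproteasome gene was close to 0 in KYSE140.

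Among interferon-stimulated genes, IFI27 stood at 1.88 and 1.36 TPM in KYSE140 and at 254 and 395 TPM in SKMES1, 134-fold higher. IRF7 and CD74, the invariant chain of class II, had 0 counts in KYSE140 and were at least 37.6-fold and 64.0-fold higher. ISG15 stood at 10.9 and 7.66 TPM against 194 and 434 TPM, with a log2 difference of 4.96 (5.42 and 4.30 without SKMES1 sg-NC#1 and sg-NC#2). IFITM1 was the lower gene, at 27.0 and 25.7 TPM against 1.40 and 0.77 TPM, while the neighbouring IFITM3 stood at 0 and 0.43 TPM against 233 and 216 TPM. The IFITM genes are near-identical copies, and the reads between them may be split incorrectly.

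Secreted proteases and their inhibitors were mostly higher in SKMES1, 12 of 15 tested, with 3 lower. PLAU, encoding urokinase, stood at 1.62 and 3.32 TPM against 157 and 298 TPM (82.9-fold higher), and its receptor PLAUR was 9.59-fold higher. The membrane metalloproteinase MMP14 was 148-fold higher, and the inhibitors TIMP1 and TIMP2 were 18.3-fold and 12.4-fold higher. TIMP3, which binds to matrix, was lower, with a log2 difference of -2.49 (-1.90 and -3.53 without SKMES1 sg-NC#1 and sg-NC#2).

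Among 13 interleukins and chemokines tested, 8 were higher and 3 lower. CXCL14, a chemokine of normal squamous epithelium, stood at 2783 and 2539 TPM in KYSE140 and 1.75 and 0.55 TPM in SKMES1, lower by a log2 difference of -11.33 (-12.35 and -10.65 without SKMES1 sg-NC#1 and sg-NC#2). CCL2, which attracts monocytes, had 0 counts in KYSE140 and stood at 116 and 44.5 TPM in SKMES1, at least 108-fold higher. LIF was 31.8-fold and IL18 69.3-fold higher. IL8 differed between the SKMES1 libraries at 47.1 and 4.44 TPM, against 1.10 and 1.16 TPM in KYSE140, and its log2 difference of 4.34 became 1.84 without sg-NC#1 and 5.23 without sg-NC#2, and against the Cas9 controls of KYSE140 it was 0.90 and not called.

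Of the AP-1 factors, which respond to growth signals, FOSL1 stood at 9.97 and 11.8 TPM against 456 and 631 TPM, 45.1-fold higher, and JUN was 8.61-fold higher, while JUNB and JUND were not called with both libraries. In all, 3 of 10 were higher and 3 lower, near the 30.4% and 25.2% of all genes. The lower calls were 2 without SKMES1 sg-NC#1, 0 without sg-NC#2, 5 against the KYSE140 Cas9 controls and 0 against the DMSO libraries. In the YAP and TEAD pathway, which senses contact and matrix stiffness, the coactivator YAP1 was 2.75-fold lower and its paralog WWTR1 4.83-fold higher. The targets CTGF, CYR61 and AMOTL2 were 4.53-fold, 2.15-fold and 2.48-fold higher.

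**Figure D3:**
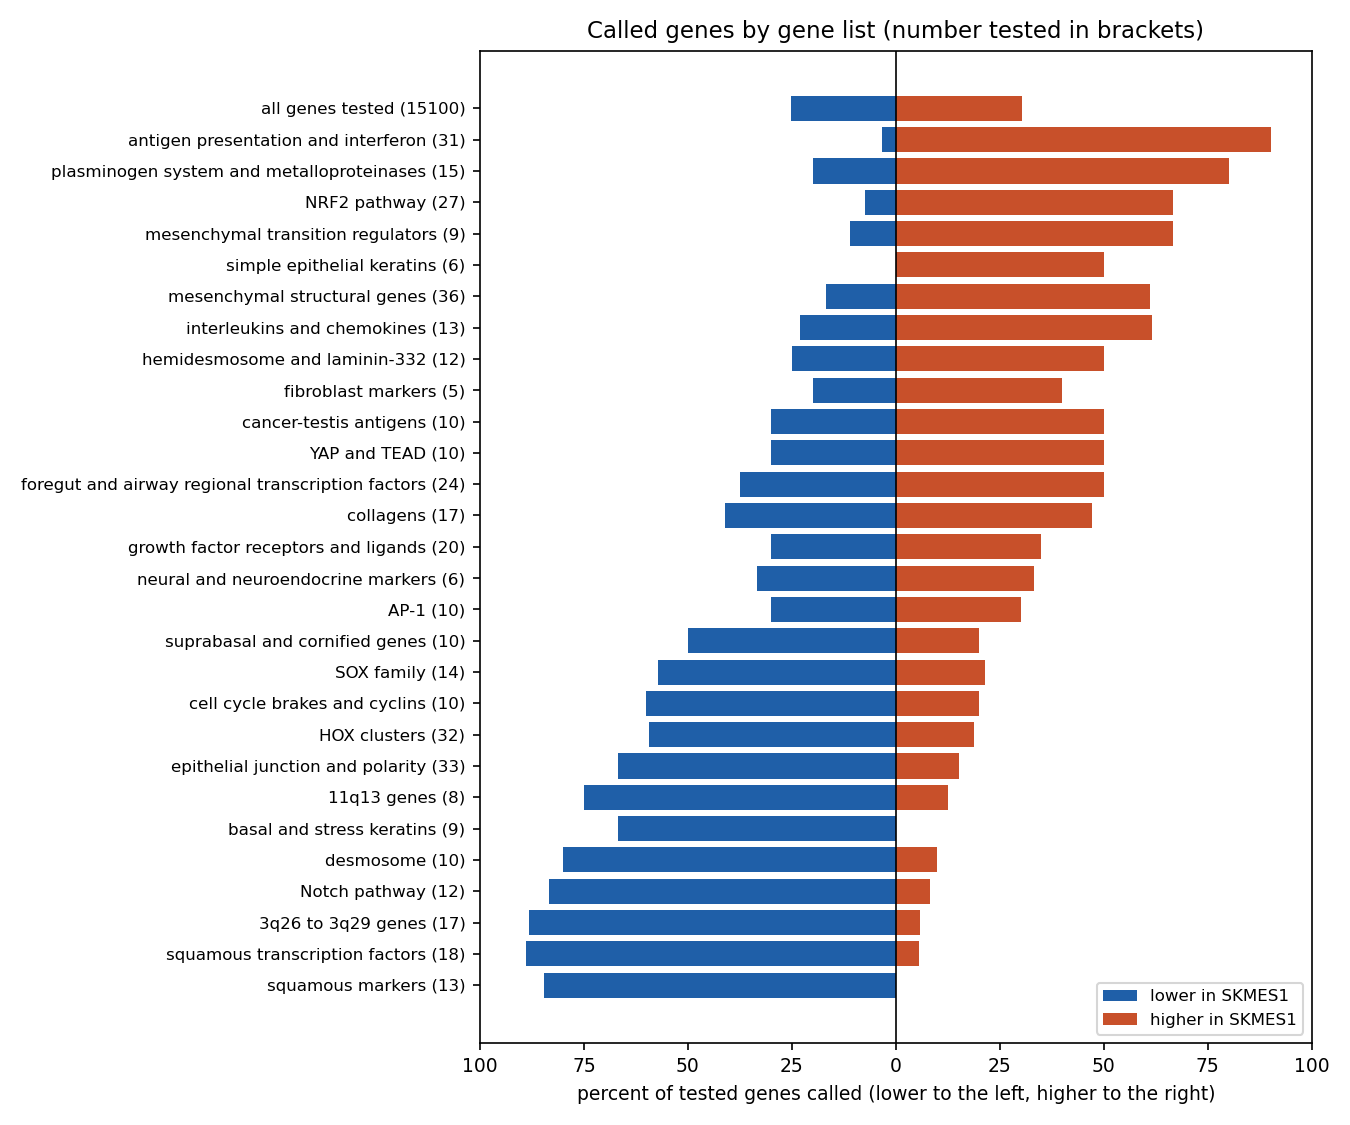
Percent of the tested genes of each list called lower in SKMES1 (blue, to the left) and higher (orange, to the right), 1 bar per list with at least 5 genes tested, ordered by the balance of both, and all tested genes at the top. Against 30.4% higher and 25.2% lower over all genes, the list of antigen presentation and interferon genes reaches 90.3% higher and the squamous transcription factors 88.9% lower.

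Genes of 3q26 to 3q29 around SOX2 were lower in SKMES1 in 15 of 17 cases and higher in 1, with a median log2 difference of -1.89. FXR1 (chr3:180585929-180700541, plus strand), an RNA-binding protein proximal to SOX2, stood at 910 and 905 TPM in KYSE140 and 155 and 175 TPM in SKMES1, 5.73-fold lower. ATP11B (chr3:182511291-182639417, plus strand), a phospholipid flippase distal to SOX2, was 9.87-fold lower and DCUN1D1, a neddylation factor, 7.74-fold lower. SOX2-OT, the noncoding RNA that overlaps SOX2, stood at 84.0 and 84.1 TPM against 0.45 and 0.18 TPM, 429-fold lower. SOX2-OT shares its locus with SOX2, and whether counting used strand is not given in the sources used here. MECOM was 2.49-fold higher, and the translation factor EIF4G1 was not called.

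The list was picked for genes known from amplified 3q, and over all 434 tested genes of the arm the difference was small. The arm had a median log2 difference of -0.26, with 102 genes higher and 143 lower. The 10 Mb bin that holds SOX2 and TP63, from 180 to 190 Mb, had a median of -0.22 over 61 genes, 15 higher and 21 lower. The lowest bin of the arm, from 170 to 180 Mb, had a median of -0.84 over 25 genes, 5 higher and 16 lower. Among 41 chromosome arms, 12p was lowest with a median of -0.75 over 189 genes (34 higher, 106 lower), followed by 13q with -0.70 over 256 genes (40 higher, 139 lower). The highest was 4p with 1.11 over 181 genes, of which 126 (69.6%) were higher and 17 lower. DNA copy number was not measured in these libraries, and its part in the arm medians was not tested.

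**Figure D4:**
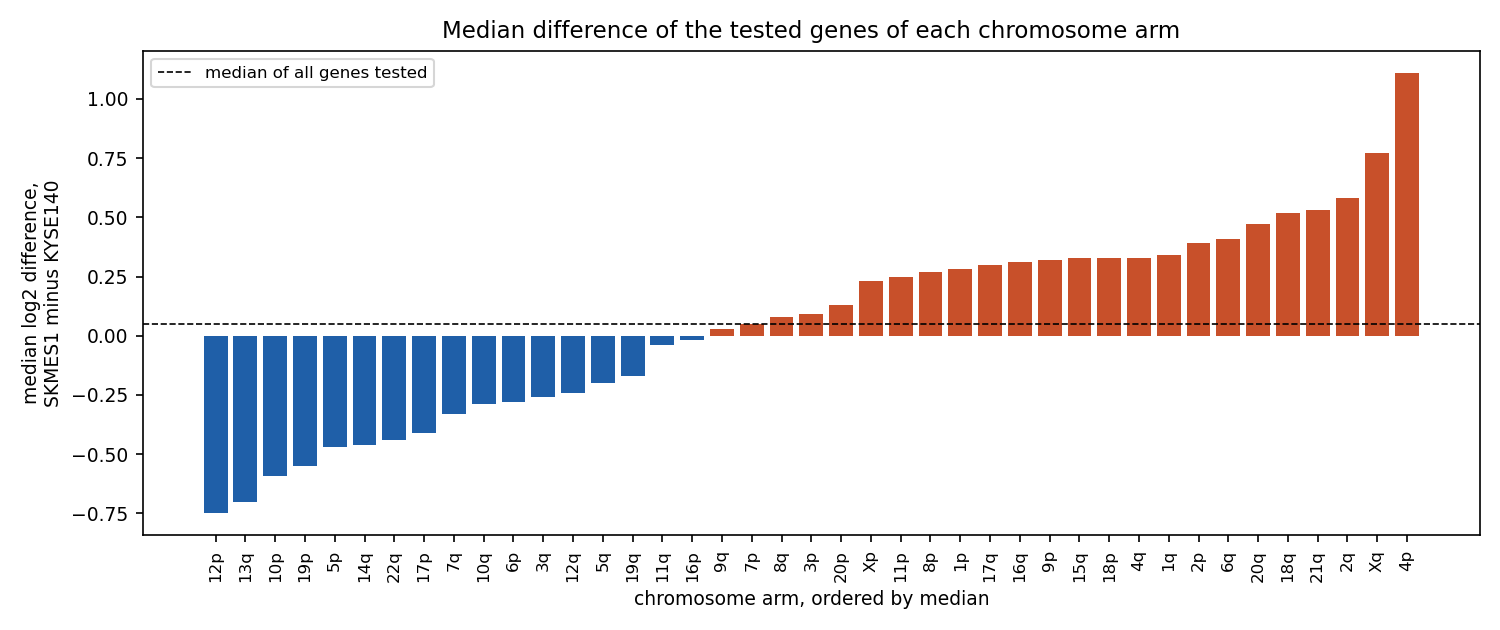
Median log2 difference between SKMES1 and KYSE140 over the tested genes of each chromosome arm, 1 bar per arm in order of the median, with the median of all genes as a dashed line at 0.05. The bars run from -0.75 at 12p to 1.11 at 4p, and 3q lies at -0.26.

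In 11q13, a region often amplified in squamous carcinoma, 6 of 8 listed genes tested were lower in SKMES1, against 25.2% of all genes. Over all 541 tested genes of 11q, 143 were higher and 138 lower, with a median log2 difference of -0.04. The chromosome 11 bins from 60 to 70 Mb and from 70 to 80 Mb had medians of 0.03 and 0.18. CTTN, the actin regulator cortactin, stood at 685 and 731 TPM against 152 and 152 TPM, 5.05-fold lower, and FADD, a death receptor adaptor, was 3.11-fold lower. CCND1, encoding cyclin D1, was the higher gene of the list at 156 and 158 TPM against 216 and 327 TPM. This 1.63-fold difference was not called without SKMES1 sg-NC#2 (log2 difference 0.44). Among other cell cycle genes, CDK4 was 2.80-fold lower, CDKN1B 2.43-fold lower and CDKN1A 1.96-fold higher. Against the KYSE140 Cas9 controls neither CDKN1A (log2 difference 0.38) nor CCND1 (0.45) was called, and 0 of the 10 cell cycle genes tested were higher.

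By the smallest p among called protein-coding genes that did not overlap between the lines, 8 genes in each direction were singled out. Higher in SKMES1 were FN1 and LOXL2, a collagen crosslinking enzyme at 63.9 and 63.0 TPM against 0.36 and 0.29 TPM (397-fold), FLNC, an actin crosslinker of muscle, at 192 and 225 TPM against 0.06 and 0.04 TPM (3809-fold), and TRIM47, a ubiquitin ligase (201-fold). The others were the macrophage growth factor CSF1 with a count ratio of 1797 (95% counting interval 497 to 14843), the inhibitor of apoptosis BIRC3 (152-fold), the protease PRSS23 (108-fold) and the proton pump subunit TCIRG1 with a count ratio of 798 (220 to 6592).

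Lower by the same rule were, among others, SOX2, FGFR2, the protocadherin PCDH17 at 61.2 and 60.5 TPM against 0.16 and 0.15 TPM (474-fold), the secreted NELL2 (65.2-fold), the basement membrane protein FREM2 (160-fold), METTL7A (989-fold) and SLC7A8, an amino acid transporter, at 547 and 563 TPM against 2.06 and 1.5 TPM (472-fold).

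Genes with at most 3 counts in each library of a line were counted as restricted to the other. Only protein-coding genes with a gene symbol were counted, 4069 called higher and 3282 called lower. Of these, 874 were restricted to SKMES1 and 224 to KYSE140. Among the restricted genes, 250 and 63 reached 10 TPM, and 26 and 9 reached 100 TPM. The most abundant SKMES1 genes of this kind were the cancer-testis antigen XAGE1D at 395 and 435 TPM, the detoxification enzymes PTGR1 at 438 and 357 TPM and MGST1 at 396 and 333 TPM, the cancer-testis antigen CTAG2 at 384 and 331.6 TPM, TPSB2, the metallothionein MT1E at 319 and 342 TPM, the lipase inhibitor G0S2 at 249 and 334 TPM and the secreted peroxidase GPX3 at 215 and 259 TPM. For TPSB2, with 663 and 6.01 TPM, the log2 difference depended on the library, 7.75 without sg-NC#1 and 14.29 without sg-NC#2, and its call (edgeR adjusted p = 0.047) held under 15 of 19 alternatives.

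Restricted to KYSE140 were LGALS7B, a galectin of stratified epithelium, at 604 and 479 TPM, GTSF1, a germline piRNA factor, at 349 and 351 TPM, the neuropeptide NTS at 233 and 187 TPM, CSTA, a cystatin of the cornified envelope, at 188 and 178 TPM, the protease PRSS21 at 175 and 177 TPM, the glypican GPC3 at 165 and 146 TPM, the cancer-testis antigen GAGE2C at 130 and 140 TPM, and RAB25. LGALS7B, GAGE2C, XAGE1D and CTAG2 belong to families of near-identical copies, and the level of each single copy is uncertain.

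Among 10 cancer-testis antigens tested, 5 were higher (50%) and 3 lower (30%), against 30.4% and 25.2% of all genes. MAGEA4 stood at 276 and 279 TPM in KYSE140 and 21.5 and 13.6 TPM in SKMES1, 18.3-fold lower, while MAGEB2 had 0 counts in KYSE140 and was at least 73.0-fold higher. Of 6 neural and neuroendocrine markers tested, 2 were higher, 2 lower and 2 not called. The lower ones were CHGB and SCG2. CHGB and SCG2, granins of secretory vesicles, stood at 113 and 109 TPM and at 137 and 144 TPM in KYSE140 and under 1 TPM in SKMES1. Their log2 differences were -7.57 and -7.75, or -8.56 and -8.34 without SKMES1 sg-NC#1 and -6.89 and -7.25 without sg-NC#2. The neuroendocrine factors INSM1 and NEUROD1 were under 1 TPM in all 4 libraries. In the Cas9 control libraries of KYSE140, INSM1 stood at 0.92 and 1.19 TPM, and with SOX2 guides at 0, 0.07 and 0 TPM. The higher ones were NCAM1, a neural adhesion molecule, at 0 and 0.04 TPM against 6.47 and 10.3 TPM, and UCHL1, a ubiquitin hydrolase of neurons, at 923 and 905 TPM against 2143 and 1713 TPM.

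Among markers of other cell types, the 13 neural and neuroendocrine ones summed to 1219 and 1206 TPM in KYSE140 and 2194 and 1764 TPM in SKMES1, most of it UCHL1. The 10 immune markers summed to 1.85 and 1.28 TPM in KYSE140 and 71.2 and 138 TPM in SKMES1, of which CD68, a lysosomal protein, made up 66.7 and 132 TPM. CD3D, CD3E, MS4A1 and NKG7 had 0 counts in all 4 libraries and PTPRC was at most 0.08 TPM. The mast cell tryptases TPSB2, TPSD1 and TPSAB1, which are not among these markers, stood at 663, 219 and 92.5 TPM in SKMES1 sg-NC#1, at 6.01, 3.05 and 0.44 TPM in sg-NC#2 and at 0 TPM in KYSE140. The 6 endothelial markers summed to between 0.45 and 0.75 TPM in all 4 libraries.

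The series also holds KYSE140 cells with Cas9 and guides against SOX2, none of which entered the comparison above, and their values for the same genes are set beside it. In the knockout libraries, SOX2 RNA was 103, 125 and 221 TPM against 397 and 428 TPM with control guides. Of 13978 genes tested, 1882 (13.5%) fell and 2275 (16.3%) rose. Of the genes that fell, 1863 were tested between the lines, and 891 (47.8%) were lower in SKMES1 and 271 (14.5%) higher. Of the genes that rose, 1955 were tested, and 320 (16.4%) were lower and 997 (51.0%) higher. Of the 9596 genes not called in the knockout, 26.2% were lower and 20.4% higher. Both comparisons use KYSE140 cells, and a gene must be present in KYSE140 to fall in either. Likewise a gene near 0 in KYSE140, such as OAS1 at 0 TPM with both control guides, can only rise in either. Part of the shared direction is thus built into the comparison, on both sides.

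Named genes that fell in the knockout and were lower in SKMES1 included TP63, at 57 to 78 TPM with SOX2 guides against 167 and 182 TPM, SOX21, at 4.03 to 10.6 TPM against 36.2 and 41.6 TPM, and FGFR2, at 17.5 to 26.3 TPM against 75.3 and 89.4 TPM. PCDH17, NELL2, FREM2, SLC7A8, METTL7A and GPC3 also fell. The granins CHGB and SCG2 fell to between 0.49 and 3.74 TPM from 100.8 to 158.8 TPM, and CXCL14 to between 71.4 and 80.7 TPM from 911 and 902 TPM.

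The squamous structural genes behaved differently in the knockout and in the line comparison. KRT5 rose with SOX2 guides to 8174, 8392 and 7567 TPM from 2437 and 2398 TPM and DSG3 to between 183 and 195 TPM from 66.7 and 79.4 TPM, whereas both were near 0 in SKMES1. By list, 9 of 9 basal keratins rose in the knockout and 0 fell, 8 of 11 desmosome genes rose and 0 fell, 24 of 25 suprabasal genes rose and 1 fell, and 11 of 18 squamous transcription factors rose and 3 fell. Antigen presentation and interferon genes rose in 21 of 25 cases with 0 falling, and mesenchymal structural genes rose in 15 of 30 with 3 falling, the direction that both lists had in SKMES1. Members near 0 in KYSE140, such as OAS1 and FN1, could only rise in either comparison. VIM reached 1152 to 1280 TPM in the knockout from 237 and 267 TPM.

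**Figure D5:**
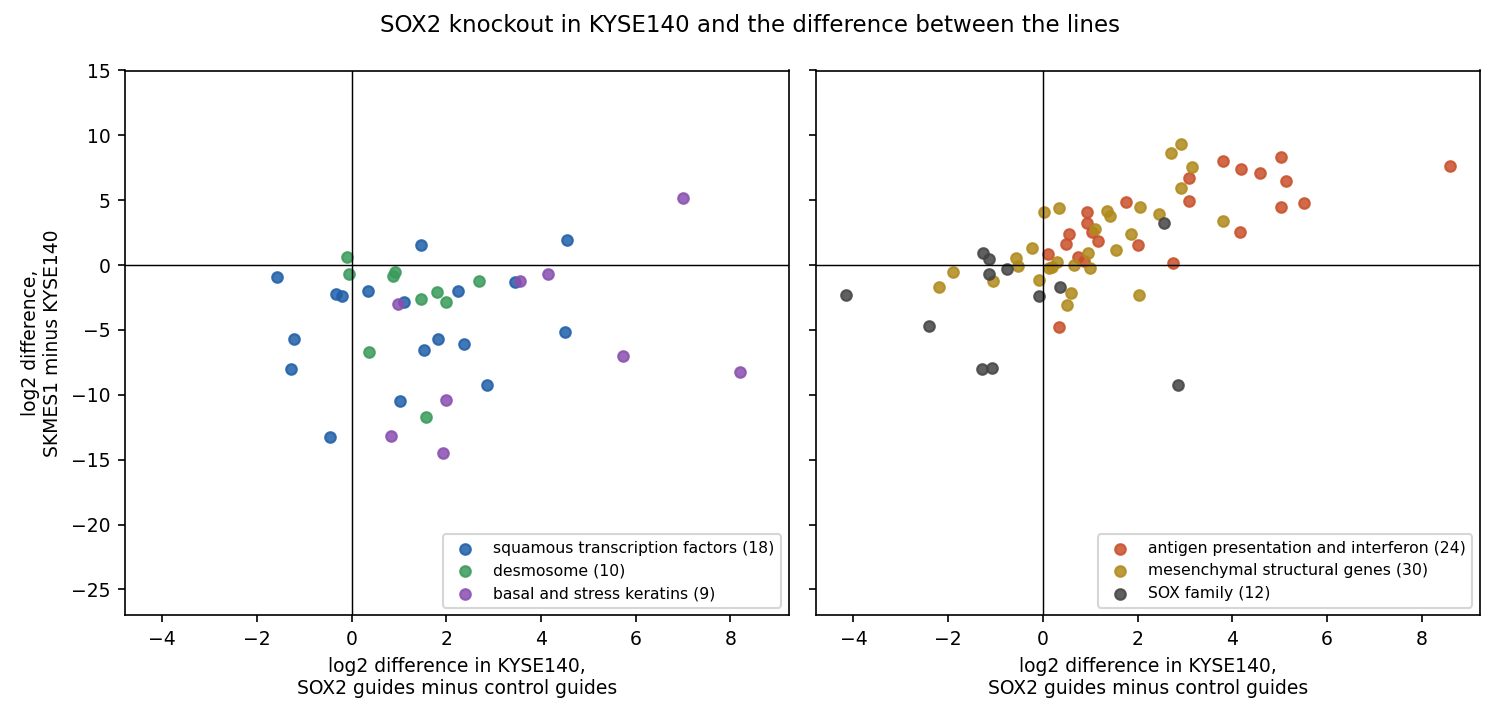
Each point is a gene, with the log2 difference between SOX2 guides and control guides in KYSE140 on the horizontal axis and that between SKMES1 and KYSE140 on the vertical axis, coloured by list, with the number of genes drawn in brackets. Most squamous factors, desmosome genes and basal keratins lie right of 0 and below 0 (left panel), and most antigen presentation genes right of 0 and above 0 (right panel).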

How the data were processed

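Poly(A) RNA libraries were prepared with a directional kit. Reads were mapped to hg19 (Bowtie2) and RSEM gave values for each GENCODE gene. The authors deposited per gene an expected count, which need not be whole because RSEM splits reads shared between genes, and TPM. Tool versions and the strand setting are not given in the sources used here, and the deposited FPKM values were not used. Expected counts of the 4 negative-control libraries were rounded, filtered with filterByExpr (minimum count 10) and fitted with edgeR 4.0.16 (TMM, quasi-likelihood F test, Benjamini-Hochberg) in R 4.3.3. The standard error is the log2 difference divided by the square root of F, which is too small for large differences that rest on few counts. Fits were tested on simulated data. Gene lists, and the comparison itself, were chosen with earlier results of these data known. Named genes were list members, the 8 smallest p per direction and the 8 most abundant restricted genes per direction. A few genes and a construct name are not reported here. With 0 counts in a line, a floor of 3 counts per library gave a bound. With 1 to 3 counts, the ratio has a 95% exact interval. The knockout fit used 2 control and 3 SOX2-guide libraries. Gene positions are GRCh37 from GENCODE 44, matched for 96.1% of IDs, and promoters are RefSeq. Alternatives were DESeq2 1.42.0, limma 3.58.1 on log2(TPM + 1) and log2(TPM + 0.1), other scalings, filters, folds and reference libraries.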

Additional observations from a re-analysis of the deposited data

How the results depend on the processing

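Over 19 alternatives, the 40 counts and main values gave 760 values, of which 735 kept their direction and side of the threshold or lay within 1.5 times the main count. The number of called genes ran from 5980 with a fold over 2 to 10231 with no minimum fold, and was 7988 with DESeq2 and 7102 to 8816 when a library was left out. The log2 difference of SOX2 ran from -8.08 to -7.16. With a fold over 2, the lower genes were 2521, those of 12p 68 and of 13q 92, and 1 neural gene was higher. With a mean of at least 50 counts, 3 suprabasal and 4 SOX genes were lower, and 3 cancer-testis, 1 fibroblast, 1 immune and 0 endothelial genes higher. Limma gave 3 suprabasal genes lower on both scales, 5 SOX genes with a pseudocount of 1 and 4 with 0.1, and 1 fibroblast and 0 endothelial genes higher. With all 17 libraries 8 suprabasal genes were lower, and with no filter 4 fibroblast genes were higher.

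When a library was left out, the hemidesmosome genes called higher were 2 to 7, the collagens 5 to 9 and the endothelial markers 0 to 1. The 2 and the 5 came from leaving out either KYSE140 library. Among 159 named genes, 2939 of 3020 values kept direction and call, 49 lost the call, 25 gained it and 7 changed sign. The sign changed against the Cas9 controls for KRT15 (0.77) and KRT19 (0.35), against the DMSO libraries for PKP2 (0.06), and between the fits without SKMES1 sg-NC#2 and without sg-NC#1 for KRT14 (-8.20 to 0.33), KRT16 (-1.70 to 6.15), ITGB4 (-2.23 to 0.20) and KLF4 (-0.31 to 2.35). The cause was not tested. A replicate block on the guide number gave 8230 called genes. Deviations of same-numbered libraries correlated at 0.03 over 12065 genes. This cannot tell whether same-numbered guides of the lines are the same, since guides without a site in the genome need not leave a shared deviation. Genes under the floor of 3 counts could not be compared.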
